A study of Mus musculus with 4 samples.

Results

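Interleukin 4 (Il4), interleukin 5 (Il5), interleukin 13 (Il13), Csf2, which encodes GM-CSF, and amphiregulin (Areg) were followed together with 3 receptor chains, Il4ra, Il13ra1 and Il9r, in leukocytes of the mouse hindpaw. These 8 of the 32285 genes in the deposited matrices were taken by symbol, whatever their values, and each was summed over the cell barcodes of a cell class and divided by all unique molecular identifiers (UMIs) of those barcodes, giving CPM, the UMIs of a gene in every 1000000 UMIs. The leukocytes came from male Lepr db/db mice on the C57BLKS/J background (DB), which lack a working long leptin receptor and become obese and diabetic, and from their male Lepr WT/WT littermates (WT), at 12 and 21 weeks of age. Both hindpaws were digested with collagenase, CD45+ cells were sorted, and 1 droplet library (10x 3′ v3) per condition was made from 2 to 3 pooled mice and is named by age and genotype, as in 12-week-WT. Lists of 4 values run in the order WT, DB at the earlier age, then WT, DB at the later age. The labels give the ages as young and aged, and the weeks come from the methods of the study. Each condition had 1 library, so that ratios between 2 libraries carry 95% intervals that cover counting error alone. DB against WT and 21 against 12 weeks were also tested over the 4 libraries within a class, by edgeR's quasi-likelihood test with genotype and age as additive terms. This additive fit was chosen after seeing the data, leaves 1 residual degree of freedom among the libraries, and cannot test whether DB/WT differed between the ages. Its p-values take the spread of a gene largely from the other genes of the class, and do not measure the spread between mice.

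IL-4 and IL-13 are the signature cytokines of type 2 immunity. IL-4 binds the IL-4Rα chain paired with the common gamma chain, whereas IL-13 binds IL-13Rα1, which then pairs with IL-4Rα, and both receptors signal through STAT6. IL-5 drives the production and survival of eosinophils, GM-CSF supports myeloid cells, and amphiregulin is a ligand of the epidermal growth factor receptor known for its part in tissue repair. In skin, group 2 innate lymphoid cells (ILC2), mast cells, basophils and T helper 2 cells are known sources of type 2 cytokines, and IL-9R with the common gamma chain receives IL-9.

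Il4, Il13, Il5 and Csf2 lie on mouse chromosome 11, the first 3 within 122.125 kb (GRCm38 chr11:53602982-53725106) and Csf2 further along, so that the stretch from Il4 to Csf2 covers 646.686 kb. Il9r is on the same chromosome, Areg on chromosome 5, Il4ra on chromosome 7 and Il13ra1 on the X chromosome. The 250 bases before the RefSeq start of each gene (GRCm38.p6) were searched on both strands for the GATA hexamer AGATAA with its 3 variants (last letter G for AGATAG, first letter T for TGATAA, both for TGATAG), for the cAMP response element TGACGTCA, and for the STAT6 pattern, TTC and GAA set 4 bases apart. GATA3 is the defining transcription factor of type 2 lymphocytes, and the GATA hexamers were present before Il5, Il13, Csf2 and Il9r, or 4 of the 8 genes, against 26.5% of the 32851 promoters searched. The promoters of Il5, Il13 and Il9r are printed 5′ to 3′ on the strand of the gene. These genes had their highest mean level over the 4 libraries in the ILC2-like cells described below. Capitals mark the GATA matches, which start at base -72 in Il5, -81 in Il13 and -223 and -30 in Il9r counted from the start site. The Csf2 promoter, with its match at base -247, is not printed, although Csf2 too was higher in ILC2-like cells than in the classes tested against them.
Il5 (chr11:53720544-53720793, plus strand): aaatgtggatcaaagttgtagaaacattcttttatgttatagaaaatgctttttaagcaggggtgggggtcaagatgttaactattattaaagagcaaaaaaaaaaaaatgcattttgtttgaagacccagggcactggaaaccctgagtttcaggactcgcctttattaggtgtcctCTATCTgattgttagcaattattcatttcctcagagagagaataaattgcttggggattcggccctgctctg
Il13 (chr11:53634703-53634952, minus strand): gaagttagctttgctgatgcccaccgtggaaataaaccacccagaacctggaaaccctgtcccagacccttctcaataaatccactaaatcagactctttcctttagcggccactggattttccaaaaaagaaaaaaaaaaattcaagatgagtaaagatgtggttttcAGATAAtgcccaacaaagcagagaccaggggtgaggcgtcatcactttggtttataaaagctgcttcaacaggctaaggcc
Il9r (chr11:32200280-32200529, minus strand): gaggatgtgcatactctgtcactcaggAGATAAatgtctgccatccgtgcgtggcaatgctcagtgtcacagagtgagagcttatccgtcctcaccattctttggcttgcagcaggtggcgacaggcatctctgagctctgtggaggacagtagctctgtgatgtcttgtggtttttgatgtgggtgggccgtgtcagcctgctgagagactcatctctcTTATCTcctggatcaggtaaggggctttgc

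Areg is shown because its level was highest in another class, the DETC-like cells, and its promoter held the cAMP response element, in capitals at base -61, which 1.55% of the promoters share.
Areg (chr5:91139349-91139598, plus strand): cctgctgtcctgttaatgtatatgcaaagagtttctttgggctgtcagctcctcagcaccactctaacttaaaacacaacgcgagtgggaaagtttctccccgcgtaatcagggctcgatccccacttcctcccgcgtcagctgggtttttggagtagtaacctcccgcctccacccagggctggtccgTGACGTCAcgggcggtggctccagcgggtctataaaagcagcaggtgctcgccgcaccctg

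The STAT6 pattern was found before Il4 alone, at base -167, against 5.85% of all promoters. No member promoter besides that of Areg held the cAMP response element, and none of the letters searched was found before Il4ra or Il13ra1.

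The 27800 barcodes kept (5271, 6552, 7270 and 8707 by library) held 46435961 to 67723605 UMIs per library, with medians of 7390, 7193.5, 8000.5 and 5355 UMIs per barcode. Of these, 22611 fell into 1 of 16 classes gated on marker genes, none of them a member, and 1121 passed more than 1 gate. The classes carry the ending -like because they rest on those markers, and the ILC2-like class has no UMI limit on members but at most 1 UMI of Cd3e, Cd3g, Trac and Trdc. Its numbers were 319, 722, 534 and 1510 barcodes. Ptprc, which encodes the sorted CD45, was detected in 79.6% to 91.2% of barcodes. Lepr had 16 to 30 UMIs per library, too few to check the genotype, and the db allele does not remove the transcript. Libraries shared 5 to 146 barcode sequences pairwise, the most between the 21-week libraries, and leaving these out moved no member's call in the tests. The matrices of the 12-week and 21-week libraries name different Cell Ranger versions, so that age and software cannot be told apart.

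The ligands and receptors fell to different cell classes (plot of the classes holding each gene's UMIs). ILC2-like cells held most of the UMIs of Il13, with 56.1%, 54.99%, 50.5% and 68.4%, and 40.2% to 77.1% of those of Il5, 37.5% to 57.6% of Csf2 and 41.5% to 53.6% of Il9r. Mast-like cells held 57.9%, 37.1%, 25.8% and 54.9% of the Il4 UMIs. Areg was divided among ILC2-like, DETC-like and dermal γδ T-like cells and the myeloid classes. Il13ra1 was held by macrophage-like and cDC2-like cells, which had 28.99% to 47.2% and 23.1% to 39.4% of its UMIs, and Il4ra was spread over all classes. The remainder lay partly in other classes, such as the 33.3% of the Il4 UMIs of 21-week-WT in basophil-like cells. Barcodes in no class or in several held the rest, up to 29.5% for Il9r among the ungated barcodes of 21-week-DB.

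**Figure D1:**
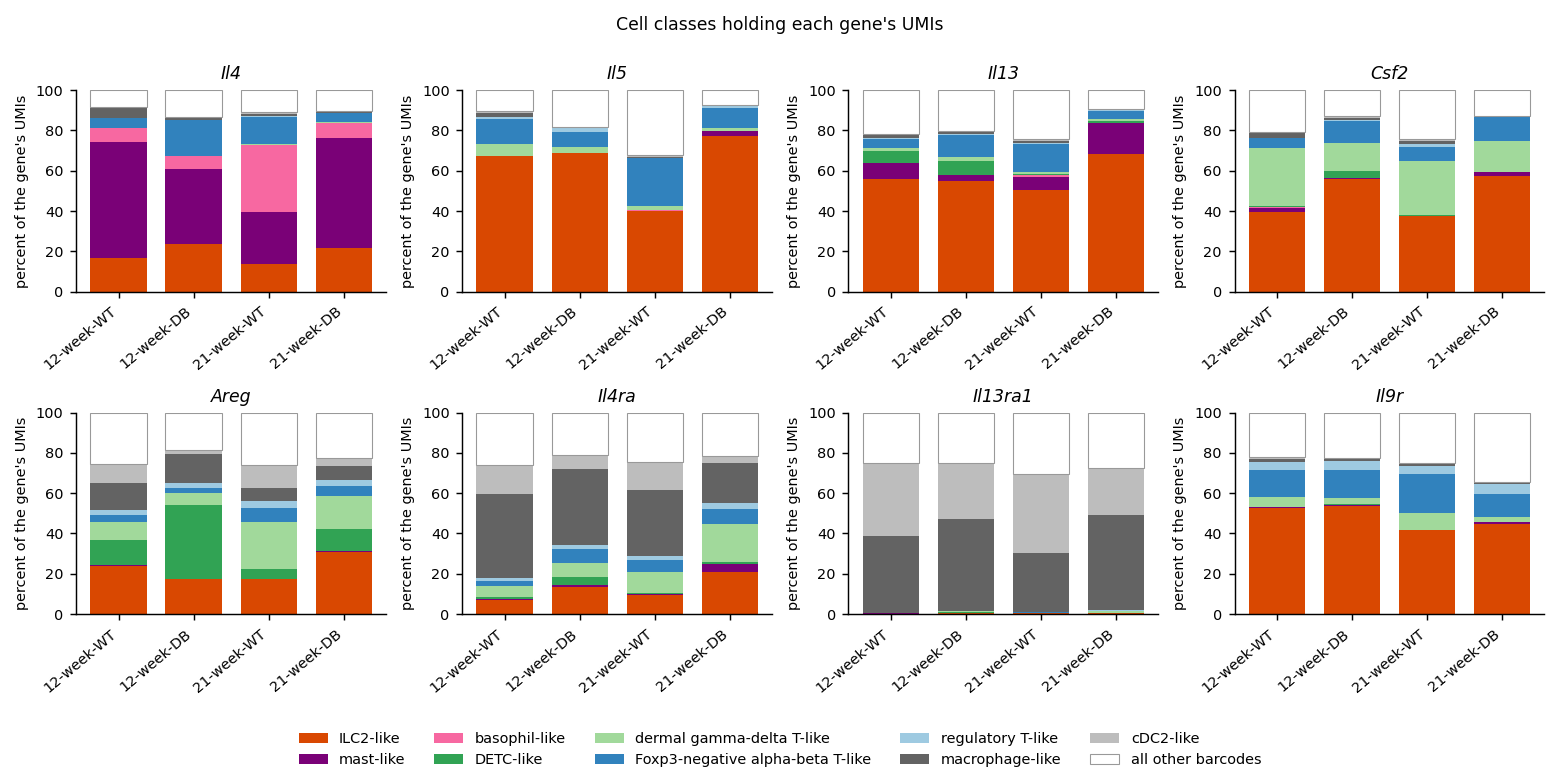
Percent of each gene's UMIs (vertical axis) held by each cell class in the 4 libraries (bars), with all other barcodes in white. ILC2-like cells hold 50.5% to 68.4% of the Il13 UMIs, and macrophage-like and cDC2-like cells most of those of Il13ra1.

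Il13, the effector cytokine of type 2 inflammation in barrier tissue, had its highest mean levels over the 4 libraries in ILC2-like and mast-like cells, although the 8 basophil-like barcodes of 21-week-WT stood above both in that library, at 759 CPM. ILC2-like cells had 323, 273, 374 and 553 CPM. The lowest level was in 12-week-DB and the highest in 21-week-DB, and a UMI was present in 43.9%, 27.7%, 37.3% and 35.2% of the barcodes. In macrophage-like cells, taken as the background, 1.08% to 2.49% of barcodes had a UMI at median depths of 8623.5 to 10144.5 UMIs per barcode, against 5896.5 to 6901 in ILC2-like cells, so the share in ILC2-like cells was above this background at a lower depth. Mast-like cells had 128, 119, 425 and 562 CPM, with both 21-week libraries above both 12-week ones.

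Between classes, Il13 averaged 381 ± 122 CPM in ILC2-like cells (SD, n = 4 libraries of different conditions) and 9.43 ± 4.27 in dermal γδ T-like cells, a log2 difference of 5.47 ± 0.20 (SE, as for all log2 differences between classes) with an adjusted p = 3.22e-08 in edgeR's quasi-likelihood test over the 4 libraries as blocks. Foxp3-negative αβ T-like cells, which may hold T helper 2 cells, averaged 81.4 ± 33.7 and differed from ILC2-like cells by 2.20 ± 0.22 (adjusted p = 1.46e-05). DETC-like cells, the dendritic epidermal T cells, averaged 99.5 ± 41.5, a difference of 1.83 ± 0.20 (adjusted p = 1.96e-06). ILC2-like cells were higher in 4 of 4 libraries in each of these. Mast-like cells averaged 308 ± 221, and their difference from ILC2-like cells, 0.50 ± 0.22, did not pass (adjusted p = 0.0681), with ILC2-like cells higher in 2 of 4 libraries. Without 21-week-WT or without 21-week-DB it passed, at 0.75 and 0.71 (adjusted p = 0.0263 and 4.12e-04). It also passed with no filter on low counts (0.57, adjusted p = 0.00159), with clusters in place of gates (0.69, adjusted p = 0.0226) and with stricter gates (0.74, adjusted p = 0.00702).

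Within ILC2-like cells, the log2 DB/WT ratio of Il13 was -0.24 (-0.37 to -0.11) at 12 weeks and 0.56 (0.48 to 0.65) at 21 weeks, lower in DB at the first age and higher at the second. These ratios depended on how the cells were defined: when unsupervised clusters replaced the gates they were 0.040 and 0.10, and at 21 weeks the stricter gates gave 0.75. From 12 to 21 weeks the log2 ratio was 0.21 (0.084 to 0.34) in WT and 1.02 (0.93 to 1.10) in DB. In the additive fit neither DB against WT, at 0.20 ± 0.24 (adjusted p = 0.816), nor 21 against 12 weeks, at 0.81 ± 0.24 (adjusted p = 0.158), passed in ILC2-like cells. In mast-like cells the change with age was 1.73 (1.36 to 2.10) in WT and 2.24 (1.88 to 2.62) in DB, and DB/WT was -0.11 (-0.59 to 0.35) at 12 weeks and 0.40 (0.18 to 0.64) at 21 weeks. The rise with age in mast-like cells passed in the additive fit, at 2.14 ± 0.23 (adjusted p = 2.30e-17), where 5.32% of 6930 genes were higher at 21 weeks. This p-value comes from 1 library per condition and is no measure of the spread between mice. Over the genes of mast-like cells with at least 50 UMIs, 1.88% of 3715 in WT and 5.01% of 5783 in DB were at least 2-fold higher at 21 weeks.

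**Figure D2:**
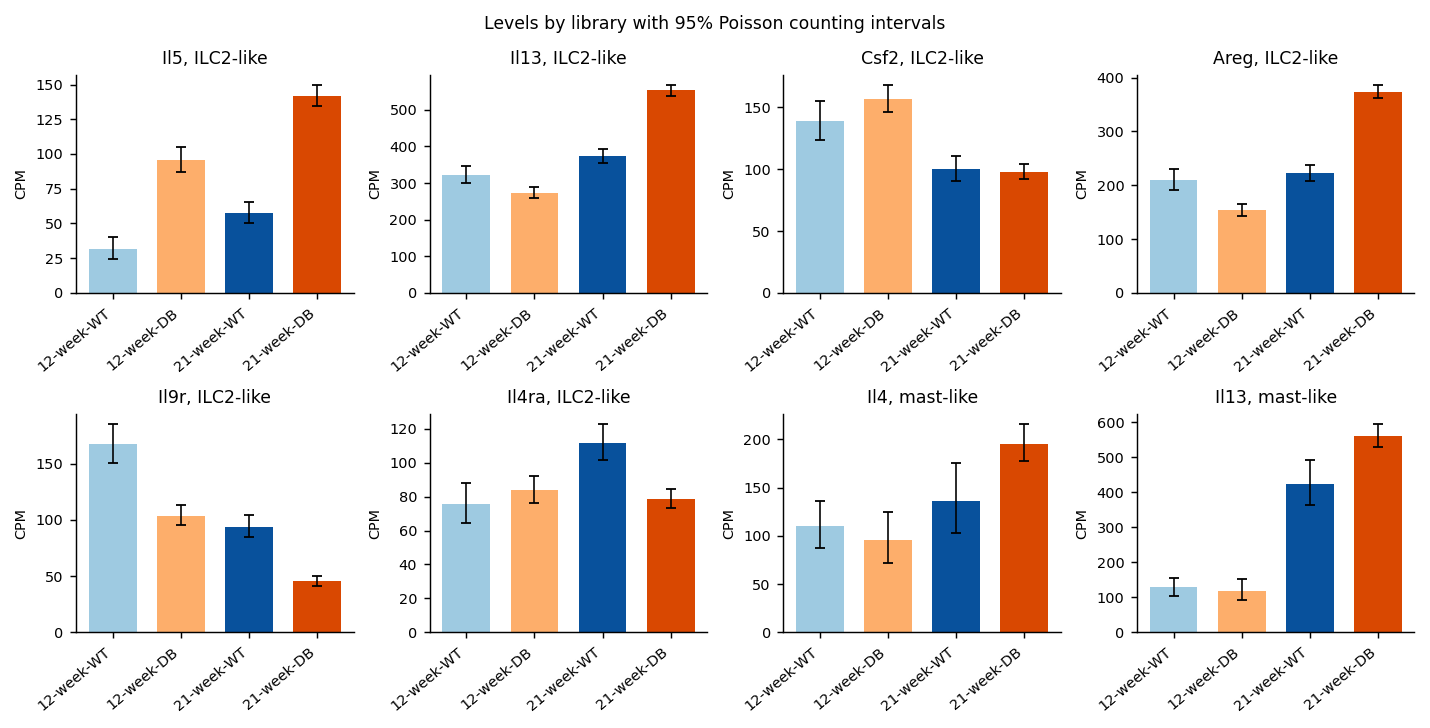
CPM (vertical axis) of 6 members in ILC2-like cells and of Il4 and Il13 in mast-like cells in each of the 4 libraries (bars, with 95% Poisson intervals that cover counting error only). Il5 in ILC2-like cells reached 95.7 and 142 in the DB libraries, above both WT libraries, and Il9r was lowest in 21-week-DB at 45.4.

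In Foxp3-negative αβ T-like cells Il13 stood at 39.3, 107, 109.6 and 69.2 CPM, and the DB/WT ratios of the 2 ages lay on either side of 0, at 1.45 (1.03 to 1.89) and -0.66 (-0.89 to -0.44). A few barcodes carried these sums. Of the Il13 UMIs, 50% came from 1, 2, 5 and 5 barcodes, and the highest barcode of 12-week-DB alone had 123 UMIs. Without the highest barcode of each library the levels were 16.3, 60.2, 87.4 and 51.1. DETC-like cells had 138, 83.7, 48.3 and 128 CPM with 74, 183, 11 and 83 UMIs, the highest in 12-week-WT and the lowest in 21-week-WT, which held 38 such barcodes. Dermal γδ T-like cells stayed at 3.72 to 13.7. Regulatory T-like cells had 9.30, 8.62, 21.3 and 40.9 CPM from 3, 5, 18 and 52 UMIs, and their difference between the ages passed narrowly in the additive fit, at 1.98 ± 0.55 (adjusted p = 0.0496), beside 0.314% of 7332 genes. That call was lost with at most 5% mitochondrial UMIs, with clusters and with stricter gates (adjusted p = 0.263, 0.0902 and 0.303).

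Il5, the eosinophil growth factor, was the member with the largest DB/WT ratios in ILC2-like cells at both ages. It reached 31.7, 95.7, 57.4 and 142 CPM from 70, 477, 225 and 1343 UMIs. Both DB libraries were above both WT libraries. The log2 DB/WT ratio was 1.59 (1.23 to 1.98) at 12 weeks and 1.31 (1.10 to 1.52) at 21 weeks, and Il5 was the only one of the 7 members with at least 50 UMIs that was at least 2-fold higher at 12 weeks, against 1.82% of 9083 genes. At 21 weeks the members at least 2-fold higher were Il4 and Il5, against 3.96% of 9897 genes, and Il9r was at least 2-fold lower, against 3.89%. Over both ages DB exceeded WT by 1.47 ± 0.20 (adjusted p = 8.06e-04) in the additive fit, in which 0.52% of 11147 genes were higher in DB. At most 5% mitochondrial UMIs brought the 21-week ratio of Il5 to 0.58, and clusters in place of gates to 0.60. The call in the additive fit was lost with at most 5% mitochondrial UMIs (0.92, adjusted p = 0.247) and with no age term (1.43, adjusted p = 0.188).

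The Il5 UMIs sat in few cells. A UMI was present in 15.7%, 19.9%, 10.5% and 17.3% of ILC2-like barcodes, and 50% of the UMIs came from 15, 14, 7 and 33 barcodes. After thinning each barcode to 2000 UMIs, the positive shares were 5.79%, 9.25%, 5.33% and 10.7%, higher in DB than in WT at each age. In macrophage-like cells, the background, they were 0.120% to 0.691% before thinning. Foxp3-negative αβ T-like cells came next, at 9.12, 20.9, 36.1 and 44.6 CPM, lowest in 12-week-WT and highest in 21-week-DB.

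ILC2-like cells averaged 81.7 ± 47.99 CPM of Il5 (SD, n = 4) against 3.11 ± 1.62 in dermal γδ T-like cells, a log2 difference of 4.93 ± 0.19 by edgeR (adjusted p = 4.57e-08), and 27.7 ± 15.8 in Foxp3-negative αβ T-like cells, a difference of 1.50 ± 0.18 (adjusted p = 7.36e-05). Without the library block the latter was as large but did not pass (1.50, adjusted p = 0.129). DETC-like cells had 3 UMIs of Il5 in all 4 libraries and ILC2-like cells 2115, a ratio of 123 (95% counting interval 42.2 to 599). Mast-like cells had no UMI of Il5 in 3 libraries and 44 in 21-week-DB, of which 30 were in 1 barcode, and their difference from ILC2-like cells was 3.45 ± 0.38 (adjusted p = 1.60e-06). The size of this difference rests on 21-week-DB: without that library all mast-like sums were 0 and the fitted value was 9.95, which depends on the prior count and is no bound. It was 5.51 with doublets removed and 6.13 in DESeq2. Barcodes that passed more than 1 gate held 27.3% of the Il5 UMIs of 21-week-WT and 3.67% in 21-week-DB, so part of the Il5 signal of 21-week-WT lies outside the classes.

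Il4, which drives IgE class switching and T helper 2 differentiation, had its highest levels in mast-like and basophil-like cells in each library. It was not confined to them, since ILC2-like and Foxp3-negative αβ T-like cells held 23.8% and 18.2% of its UMIs in 12-week-DB. Mast-like cells had 110.1, 95.3, 136 and 196 CPM from 84, 53, 58 and 405 UMIs. The level was highest in 21-week-DB, where 1 barcode held 35 of the 405 UMIs. The log2 DB/WT ratio was -0.21 (-0.73 to 0.31) at 12 weeks and 0.52 (0.12 to 0.95) at 21 weeks. From 12 to 21 weeks the log2 ratio was 0.31 (-0.20 to 0.81) in WT, an interval that includes 0, and 1.04 (0.62 to 1.48) in DB. A UMI was present in 22.1%, 15.5%, 19% and 21.4% of mast-like barcodes. The difference between the ages passed in the additive fit, at 0.85 ± 0.24 (adjusted p = 0.0102), and was lost with clusters in place of gates (0.76, adjusted p = 0.222), while DB against WT did not pass, at 0.25 ± 0.24 (adjusted p = 0.823). Mast-like barcodes were shallow, with medians of 1425 to 2063 UMIs. Mcpt2, a protease of mast cells that did not serve in the mast-like gate, was among their 10 leading genes by fold. The proteases Mcpt4 and Cpa3 were among these genes too, but both served in that gate, so that their rank is no finding. Basophil-like cells numbered 6, 3, 8 and 6 barcodes and held 10, 9, 75 and 53 Il4 UMIs, which was 33.3% of all Il4 UMIs in 21-week-WT. These few barcodes were gated on Mcpt8, and Il13 UMIs were found in them in the 21-week libraries only, 37 in WT and 1 in DB.

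ILC2-like cells had less Il4, 10.9, 6.82, 7.91 and 16.8 CPM, and a UMI in 2.996% to 7.28% of barcodes, against 0.101% to 0.421% of macrophage-like barcodes. Their average of 10.6 ± 4.47 (SD, n = 4) was below the 134 ± 44.3 of mast-like cells, a log2 difference of -3.69 ± 0.17 by edgeR (adjusted p = 6.78e-11), with mast-like cells higher in 4 of 4 libraries. It did not differ beyond the spread from the 8.02 ± 2.21 of Foxp3-negative αβ T-like cells (log2 difference 0.33 ± 0.26, adjusted p = 0.441). Dermal γδ T-like cells had 4 Il4 UMIs in all, and DETC-like cells none. With a floor of 3 counts over the 4 libraries, Il4 in ILC2-like cells was at least 14.5-fold higher than in DETC-like cells. In ILC2-like cells the DB/WT ratio of Il4 was -0.67 (-1.47 to 0.15) at 12 weeks and 1.09 (0.52 to 1.69) at 21 weeks, from 24 to 159 UMIs per library.

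Csf2 was found in ILC2-like, dermal γδ T-like and Foxp3-negative αβ T-like cells, where GM-CSF is known to be made by activated lymphocytes. ILC2-like cells had 139, 157, 100.3 and 97.9 CPM. The 12-week libraries were above the 21-week ones, with log2 ratios of 21 to 12 weeks of -0.47 (-0.69 to -0.25) in WT and -0.68 (-0.82 to -0.54) in DB, whereas DB/WT was 0.18 (-0.015 to 0.37) and -0.034 (-0.21 to 0.14), intervals that both include 0. Dermal γδ T-like cells had 82.6, 56.3, 43.9 and 34.4 CPM, lower in DB at both ages, with ratios of -0.55 (-0.84 to -0.27) and -0.35 (-0.60 to -0.099). The age ratios there were -0.91 (-1.17 to -0.65) in WT and -0.71 (-0.99 to -0.43) in DB, so the level was lower at 21 weeks in both classes and both genotypes. These age differences did not pass in the additive fit, at -0.39 ± 0.19 (adjusted p = 0.411) in ILC2-like and -0.65 ± 0.20 (adjusted p = 0.0804) in dermal γδ T-like cells, nor did DB against WT in the latter, at -0.48 ± 0.20 (adjusted p = 0.309).

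ILC2-like cells exceeded dermal γδ T-like cells in Csf2, at 123 ± 29.03 against 54.3 ± 20.9 CPM (SD, n = 4, log2 difference 1.27 ± 0.12, edgeR adjusted p = 2.97e-05), and Foxp3-negative αβ T-like cells at 39.3 ± 18.7 (log2 difference 1.61 ± 0.18, adjusted p = 4.67e-05, or 2.74 with clusters and 2.44 with stricter gates). In the latter the level was 27.4, 59.9, 20.1 and 49.7, higher in DB at both ages, with ratios of 1.13 (0.62 to 1.68) and 1.31 (0.91 to 1.71), which did not pass in the additive fit (1.28 ± 0.22, adjusted p = 0.282). There again few barcodes mattered, since 50% of the UMIs came from 5, 2, 2 and 3 barcodes, and with clusters in place of gates both ratios were below 0 (-0.69 and -0.37). DETC-like and mast-like cells were lower than ILC2-like cells by 3.22 ± 0.23 (adjusted p = 1.49e-08) and 3.15 ± 0.21 (adjusted p = 4.34e-09). In macrophage-like cells Csf2 was at 0.298 to 1.10, the background.

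Areg was highest in DETC-like cells, the resident γδ T cells of the epidermis, which had 445, 743, 1081 and 1927 CPM from 238, 1625, 246 and 1254 UMIs. The level was higher in DB than in WT at each age and higher at 21 than at 12 weeks in each genotype, and a UMI was present in 41.4%, 51.9%, 71.1% and 83.6% of barcodes, at median depths of 4603.5 to 5717 UMIs, against 0% to 1.74% of B-like barcodes at 2721 to 3717.5. Thinned to 2000 UMIs the shares in DETC-like cells were 34.5%, 41.5%, 55.9% and 75.1%, in the same order. The B-like background was shallower than DETC-like cells. It stands here in place of macrophage-like cells, which had 15.5 to 58.7 CPM of Areg. The log2 DB/WT ratio was 0.74 (0.54 to 0.94) at 12 weeks and 0.83 (0.64 to 1.04) at 21 weeks, and that of 21 to 12 weeks 1.28 (1.02 to 1.54) in WT and 1.37 (1.27 to 1.48) in DB. The comparison of 21 with 12 weeks passed in the additive fit, at 1.39 ± 0.31 (adjusted p = 0.00160), beside 2.13% of 6520 genes, and was lost with at most 5% mitochondrial UMIs (1.08, adjusted p = 0.115). DB against WT did not pass, at 0.81 ± 0.31 (adjusted p = 0.368). Among the genes of DETC-like cells with at least 50 UMIs in DB, 4.47% of 6127 were at least 2-fold higher at 21 weeks.

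ILC2-like cells had 211, 155, 223 and 374 CPM, dermal γδ T-like cells 65.1, 78.2, 181 and 264 and regulatory T-like cells, a class known for amphiregulin in tissue repair, 149, 195, 200.5 and 266. In dermal γδ T-like cells both 21-week libraries were above both 12-week ones, and the difference passed in the additive fit at 1.78 ± 0.21 (adjusted p = 2.81e-07), where 0.926% of 11233 genes were higher at 21 weeks. ILC2-like cells had their highest level in 21-week-DB and their lowest in 12-week-DB, with DB/WT ratios of -0.45 (-0.61 to -0.28) and 0.75 (0.64 to 0.85), the latter 0.31 with clusters in place of gates, and over both ages DB against WT was 0.19 ± 0.26 (adjusted p = 0.831). Regulatory T-like cells ranked in the same order as DETC-like cells over the libraries, from 60 to 234 barcodes each, and their DB/WT ratios were 0.39 (-0.11 to 0.91) and 0.41 (0.14 to 0.68).

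DETC-like cells averaged 1049 ± 640.5 CPM of Areg (SD, n = 4) and were above ILC2-like cells, at 241 ± 93.8, in 4 of 4 libraries, with a log2 difference of ILC2-like minus DETC-like of -2.05 ± 0.18 (edgeR adjusted p = 1.11e-07). ILC2-like cells were in turn above dermal γδ T-like cells by 0.82 ± 0.17 (adjusted p = 0.00394) and Foxp3-negative αβ T-like cells by 1.52 ± 0.12 (adjusted p = 1.35e-06). Mast-like cells were far lower, at 11.8 ± 11.2, a difference of 4.17 ± 0.24 (adjusted p = 8.83e-10). Without the library block, the difference from dermal γδ T-like cells no longer passed (0.72, adjusted p = 0.451), nor did that from Foxp3-negative αβ T-like cells (1.47, adjusted p = 0.0687).

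Myeloid cells also carried Areg. In cDC2-like cells it was at 19.3, 15.5, 39.3 and 156 CPM and in macrophage-like cells at 15.5, 29.1, 19.3 and 58.7, highest in 21-week-DB in both. The DB/WT ratio at 21 weeks was 1.99 (1.82 to 2.17) in cDC2-like and 1.61 (1.42 to 1.80) in macrophage-like cells, where 3.74% of 9937 and 4.83% of 11347 genes were at least 2-fold higher. The 12-week ratios were -0.31 (-0.67 to 0.045) and 0.90 (0.69 to 1.12). At 21 weeks DB/WT of Areg was above 0 in every class with UMIs in both libraries, though the interval of basophil-like cells included 0. It was 0.53 (0.34 to 0.73) in Foxp3-negative αβ T-like cells and 3.58 (1.04 to 8.91) in mast-like cells, the latter from 1 UMI in WT and 58 in DB. In the additive fit DB exceeded WT in macrophage-like cells by 1.23 ± 0.20 (adjusted p = 0.0237), beside 0.367% of 13075 genes, and cDC2-like cells did not pass, at 0.92 ± 0.52 (adjusted p = 0.791). The macrophage-like call was lost with at most 5% mitochondrial UMIs (1.12, adjusted p = 0.0738), with stricter gates (1.22, adjusted p = 0.0505) and with no age term (1.30, adjusted p = 0.418). The number of Areg UMIs per Il13 UMI was 11.5, 18.5, 9 and 21.9 in macrophage-like cells and 60.7, 8.67, 24 and 67.7 in cDC2-like cells. It was 0.565 to 0.676 in ILC2-like cells, 3.22, 8.88, 22.4 and 15.1 in DETC-like cells, 7.29, 6.87, 48.5 and 19.3 in dermal γδ T-like cells and 1.50 to 1.80 over all barcodes. The part of free RNA from other cells in these UMIs was not tested. Gata3 was at 2.14 to 3.93 CPM in macrophage-like cells and 944 to 1213 in ILC2-like cells. The 21-week-DB library held 239 cDC2-like barcodes against 1086 in 21-week-WT. Macrophage-like and cDC2-like cells did not differ in Areg beyond the spread (-0.74 ± 0.34, edgeR adjusted p = 0.112), although without 12-week-DB the difference passed at -1.18 (adjusted p = 0.0115).

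**Figure D3:**
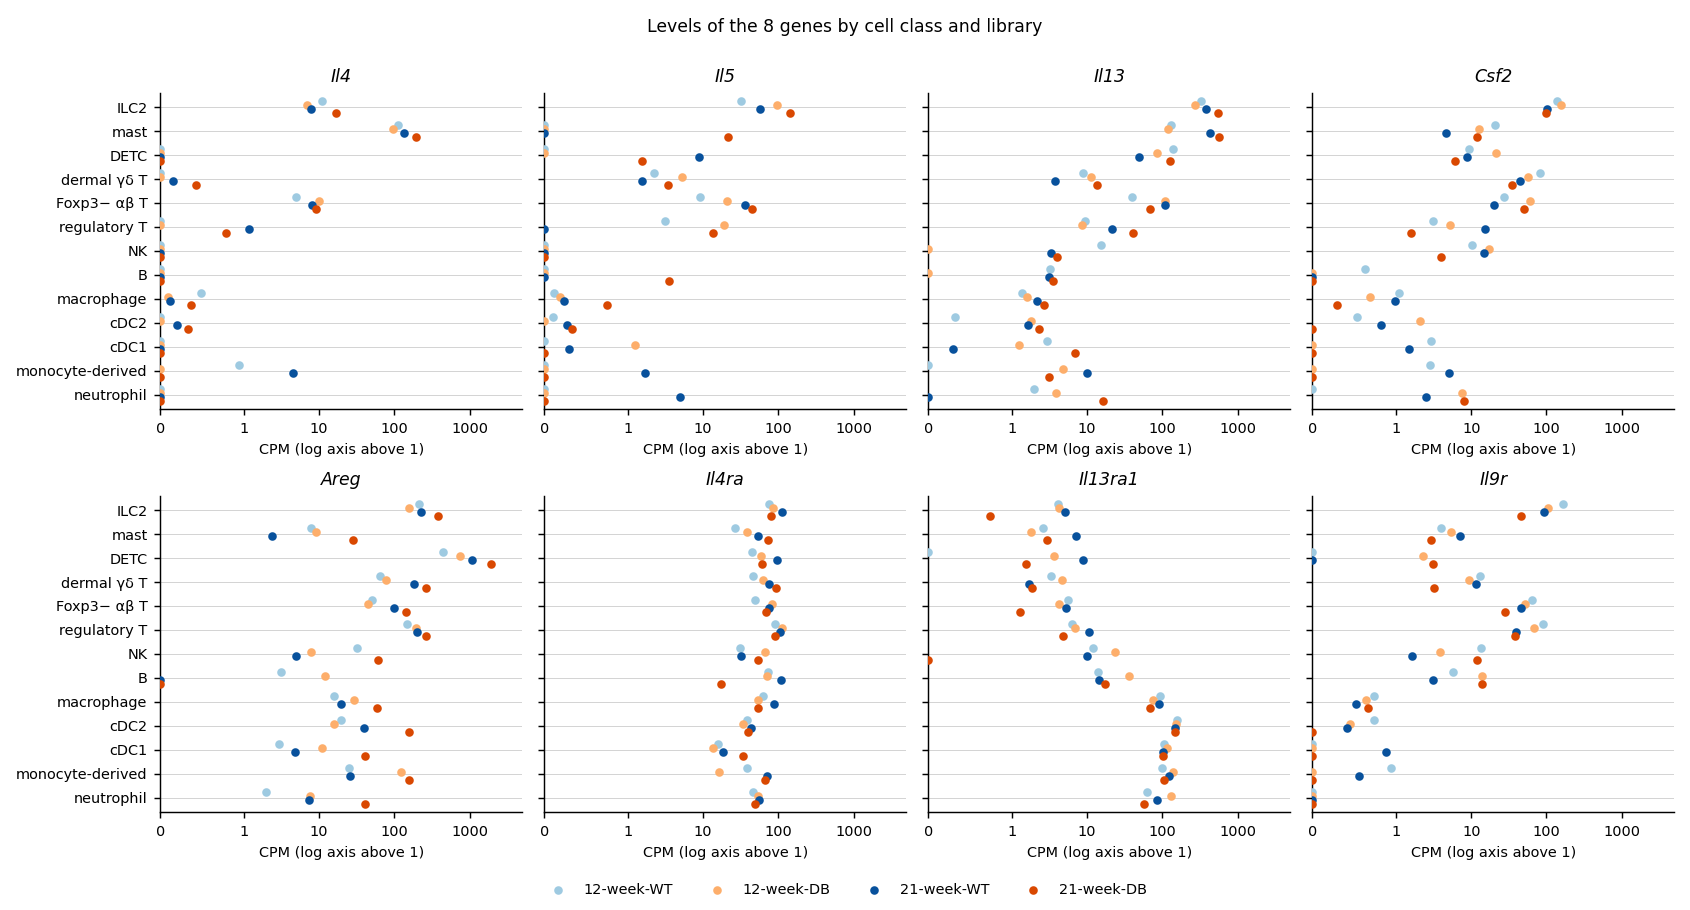
CPM (horizontal axis, logarithmic above 1 and linear below) of the 8 genes in 13 cell classes (rows), with 1 point per library. Il13ra1 points of macrophage-like, dendritic, monocyte-derived-like and neutrophil-like cells lie to the right of those of lymphocytes and mast-like cells, and Areg points of DETC-like cells run from 445 to 1927.

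Among the receptor chains, Il4ra, shared by the IL-4 and IL-13 receptors, was present in every class. Macrophage-like cells had 62.1, 53.03, 87.4 and 53.6 CPM, cDC2-like cells 38.3, 33.5, 43.8 and 39.9, ILC2-like cells 75.6, 83.9, 112 and 78.6 and regulatory T-like cells 89.9, 110.3, 104 and 90.4. Regulatory T-like cells had the highest mean of the lymphoid classes, followed by ILC2-like cells, whose ranges overlapped. The macrophage-like level was the lower in DB each time, with log2 DB/WT ratios of -0.23 (-0.35 to -0.10) and -0.71 (-0.84 to -0.58), and the ILC2-like level at 21 weeks only, with ratios of 0.15 (-0.11 to 0.42) and -0.51 (-0.68 to -0.33). Dermal γδ T-like cells went the other way, at 45.8, 62.4, 75.2 and 94.1, with ratios of 0.45 (0.12 to 0.78) and 0.32 (0.15 to 0.49). In the additive fit the macrophage-like difference, -0.50 ± 0.19, did not pass (adjusted p = 0.268), nor did that of dermal γδ T-like cells, 0.35 ± 0.20 (adjusted p = 0.560). Between the ages Il4ra was higher at 21 weeks in dermal γδ T-like cells, by 0.81 ± 0.20 (adjusted p = 0.0160), and in mast-like cells, by 1.14 ± 0.33 (adjusted p = 0.0105), at 26.2, 37.8, 53.97 and 72.99 CPM. The latter was lost with clusters in place of gates (1.02, adjusted p = 0.119).

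Macrophage-like cells exceeded cDC2-like cells in Il4ra, at 64.01 ± 16.1 against 38.9 ± 4.26 CPM (SD, n = 4), a log2 difference of 0.52 ± 0.10 (edgeR adjusted p = 0.00404, or 0.0869 without the library block). ILC2-like cells exceeded mast-like cells by 0.78 ± 0.20 (adjusted p = 0.00449, or 1.21 without 21-week-DB) and did not pass against dermal γδ T-like cells (0.34 ± 0.13, adjusted p = 0.0746). Against Foxp3-negative αβ T-like and DETC-like cells they passed narrowly, by 0.34 ± 0.11 (adjusted p = 0.0389) and 0.44 ± 0.16 (adjusted p = 0.0353). The first of these was lost without 12-week-WT, 21-week-WT or 21-week-DB (log2 difference 0.29, 0.23 and 0.40), and the second without 12-week-WT, 12-week-DB or 21-week-DB (0.39, 0.47 and 0.45). DESeq2, no library block and at most 5% mitochondrial UMIs also ended the first (adjusted p = 0.140, 0.451 and 0.0635). The second was lost in DESeq2, with no filter, no library block, at most 5% mitochondrial UMIs and doublets removed (adjusted p = 0.0707, 0.0525, 0.120, 0.0626 and 0.0622). The difference from dermal γδ T-like cells passed without 21-week-DB, at 0.57, with stricter gates, at 0.44 (adjusted p = 0.0136), and with no filter, at 0.33 (adjusted p = 0.00133).

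Il13ra1, the IL-13 binding chain, was found in macrophage-like, dendritic, monocyte-derived-like and neutrophil-like cells, and hardly in mast-like cells, which had 2.62, 1.80, 7.04 and 2.90 CPM. cDC2-like cells had 155, 149, 146 and 148 CPM, and macrophage-like cells 93.8, 75.4, 91.1 and 68.2. The cDC2-like level was nearly constant over the conditions, with DB/WT ratios of -0.048 (-0.17 to 0.069) and 0.019 (-0.13 to 0.17), and the macrophage-like level was lower in DB, at -0.32 (-0.42 to -0.21) and -0.42 (-0.54 to -0.30), a difference that did not pass in the additive fit (-0.40 ± 0.16, adjusted p = 0.313). cDC1-like cells had 100.5 to 117 and monocyte-derived-like cells 99.3 to 136. ILC2-like, dermal γδ T-like and Foxp3-negative αβ T-like cells stayed at 0.740 to 5.10, 1.71 to 4.67 and 1.28 to 5.61, with a UMI in 0.397% to 2.51% of ILC2-like barcodes against 73.02% to 75.2% of cDC2-like barcodes, whose median depths were 11566 to 13089.5 UMIs. cDC2-like cells exceeded macrophage-like cells, at 149 ± 3.68 against 82.1 ± 12.4 (SD, n = 4), with a log2 difference of macrophage-like minus cDC2-like of -1.07 ± 0.094 (edgeR adjusted p = 8.81e-05).

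Il9r, the IL-9 receptor chain, was highest in ILC2-like cells, and its level there was lower in DB at each age and lower at 21 weeks in each genotype. Their levels were 167, 104, 93.9 and 45.4 CPM, and a UMI was present in 57.99%, 45.98%, 43.4% and 21.99% of barcodes, or 27.3%, 18.4%, 16.8% and 8.40% after thinning to 2000 UMIs. Macrophage-like barcodes, the background, had a UMI in 0.558% to 0.704%. The log2 DB/WT ratio was -0.69 (-0.88 to -0.49) at 12 weeks and -1.05 (-1.25 to -0.84) at 21 weeks, and that of 21 to 12 weeks -0.83 (-1.04 to -0.62) in WT and -1.19 (-1.38 to -1.004) in DB, where 6.55% of 10138 genes were at least 2-fold lower. In the additive fit DB was below WT by a log2 difference of -0.84 ± 0.19 (adjusted p = 0.0369), beside 0.736% of 11147 genes lower, whereas 21 against 12 weeks, at -0.83 ± 0.19 (adjusted p = 0.0742), did not pass. With at most 5% mitochondrial UMIs the 21-week DB/WT ratio was -0.64, and with stricter gates -1.26. The call in the additive fit was lost with at most 5% mitochondrial UMIs (-0.54, adjusted p = 0.442), with stricter gates (-0.91, adjusted p = 0.0990) and with no age term (-0.80, adjusted p = 0.631). Foxp3-negative αβ T-like cells had 64.5, 51.8, 46.4 and 28.2 and regulatory T-like cells 89.9, 68.96, 39.1 and 38.5, each with its highest level in 12-week-WT. Dermal γδ T-like cells had 13.02, 9.34, 11.5 and 3.24 CPM. Their log2 DB/WT ratios were -0.48 (-1.22 to 0.25) at 12 weeks and -1.82 (-2.57 to -1.13) at 21 weeks, the latter from 23 UMIs in DB and 74 in WT. Of the Il9r UMIs of ILC2-like cells, 50% came from 54, 98, 67 and 117 barcodes. These numbers are larger than those of Il5, but Il5 was also present in fewer barcodes, and they are not scaled to the positive barcodes.

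ILC2-like cells averaged 103 ± 50.04 CPM of Il9r (SD, n = 4) and exceeded dermal γδ T-like cells by 3.45 ± 0.13 on the log2 scale (edgeR adjusted p = 3.35e-08), Foxp3-negative αβ T-like cells by 1.01 ± 0.10 (adjusted p = 1.95e-05, or 1.09 and 0.0695 without the library block), mast-like cells by 4.35 ± 0.26 (adjusted p = 1.29e-09) and DETC-like cells, with 7 UMIs in all, by 5.63 ± 0.38 (adjusted p = 7.57e-09). Its ligand Il9 had 1 UMI in each DB library and none in either WT library among ILC2-like cells.

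**Figure D4:**
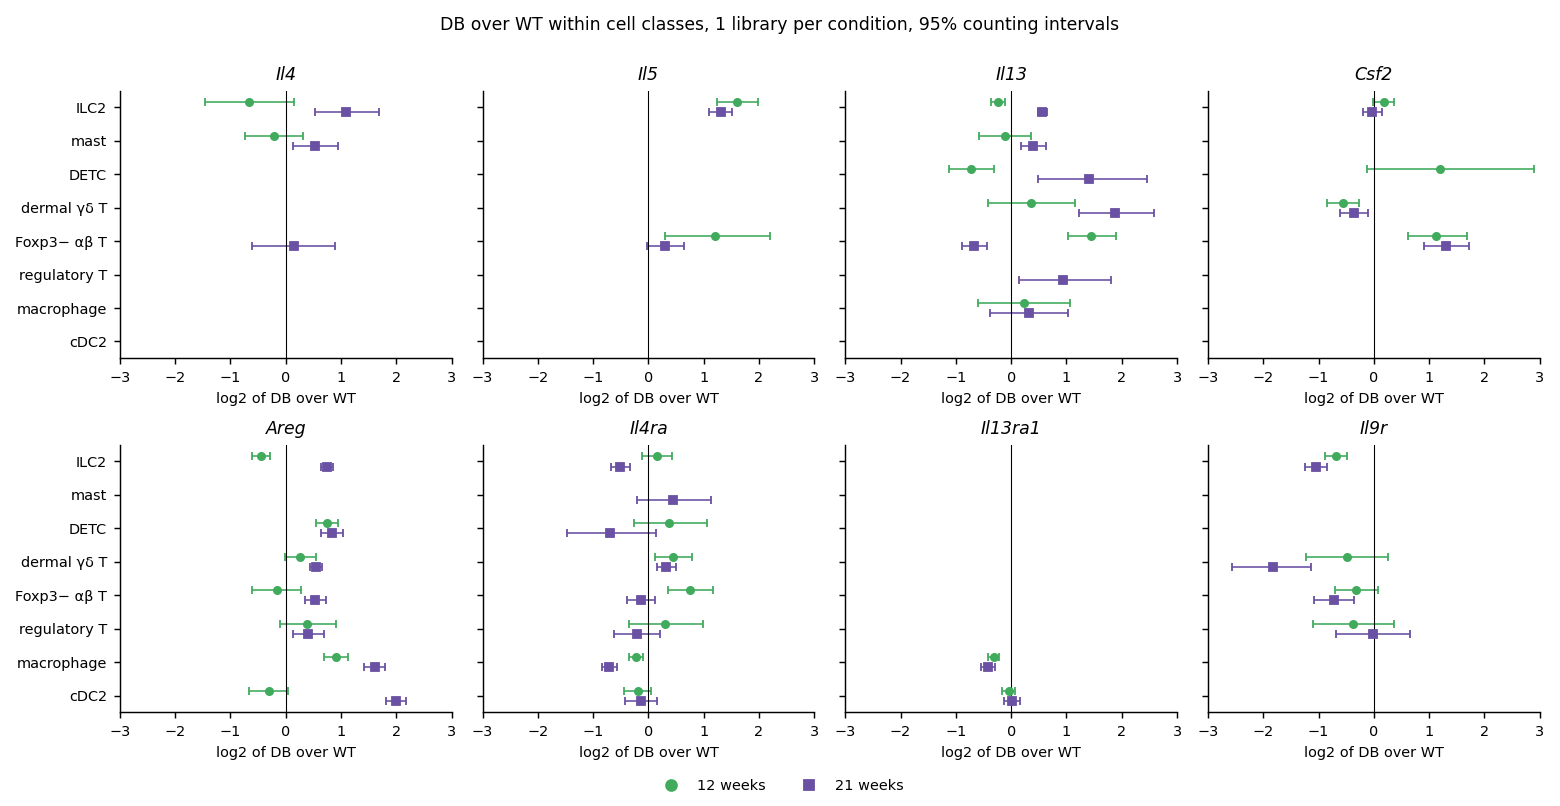
Log2 of DB over WT (horizontal axis) of each gene within 8 cell classes (rows) at 12 weeks (circles) and 21 weeks (squares), with 95% counting intervals, for pairs of libraries with at least 50 UMIs and more than 3 in each. Il5 in ILC2-like cells lies at 1.59 and 1.31, Il9r there at -0.69 and -1.05, and Il13 in Foxp3-negative αβ T-like cells on both sides of 0.

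Taking the class tests as a whole, 6 of 8 members were higher in ILC2-like than in dermal γδ T-like cells and none lower, while 13.8% of 11037 genes tested were higher and 14.4% lower. Against Foxp3-negative αβ T-like cells the count was again 6 of 8, and none lower, with backgrounds of 9.84% and 9.91% of 10771. Against DETC-like cells 6 of the 7 tested were higher and 1, Areg, lower, with backgrounds of 22.1% and 23.1% of 9847 genes. Against mast-like cells 5 of 7 were higher and 1, Il4, lower, with backgrounds of 25.7% and 25.5% of 9990. Between macrophage-like and cDC2-like cells, 1 of the 5 tested was higher (Il4ra) and 1 lower (Il13ra1), against 24.6% and 23.7% of 12598. Median log2 differences of the members were 2.36, 1.26, 3.22, 3.15 and -0.28 in these 5 contrasts, against 0.0021, 0.00061, 0.11, 0.053 and 0.016 over all genes. With Il4 at its bound the median against DETC-like cells was the same. Il13ra1 was filtered out for low counts against DETC-like and mast-like cells, and Il4, Il5 and Il9r between the myeloid classes. Between conditions, the additive fit called 2 of 8 members for genotype in ILC2-like cells, 1 higher and 1 lower in DB. Of all 11147 genes there, 0.52% were called higher and 0.736% lower. In macrophage-like cells the fit called 1 of 6, higher in DB, beside 0.367% of 13075 genes. It called none of those tested for genotype in mast-like, dermal γδ T-like, DETC-like, regulatory T-like, Foxp3-negative αβ T-like and cDC2-like cells. For age it called 3 of 3 members in mast-like, 2 of 7 in dermal γδ T-like, 1 of 3 in DETC-like and 1 of 4 in regulatory T-like cells. All were higher at 21 weeks, beside 5.32%, 0.926%, 2.13% and 0.314% of the genes tested there. In Foxp3-negative αβ T-like cells edgeR called no gene of 10516 for genotype or age, with 712 and 1010 at an unadjusted p under 0.05.

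Members were also found together in single ILC2-like cells. Barcodes with an Il13 UMI carried Areg in 43.6 to 59.3% over the 4 libraries, against 16.8 to 29.4% of those without, and Csf2 in 24.1 to 36% against 6.84 to 16.2%. Il5 was present in 16.6 to 35.5% against 6.87 to 13.98% and Il4 in 6.03 to 12.99% against 1.19 to 4.19%. The direction was the same in 4 of 4 libraries for these cytokines, whereas Il9r was present in 18.3 to 62.9% against 24.004 to 54.2%, higher in Il13-positive barcodes in 2 libraries and lower in the other two. Il13-positive barcodes were deeper, for example 7233 against 6080 median UMIs in 12-week-WT. In CPM, which does not scale with depth, Csf2 was at 153 to 397 in Il13-positive and 48.98 to 64.1 in Il13-negative barcodes. The shares given for Areg, Il5 and Il4 are not corrected for depth, and the Csf2 values do not stand for them.

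The rest of the pathway was read from a list of 43 genes for receptor partners, signalling, other ligands, regulators, activating receptors and genes that STAT6 is known to induce. In ILC2-like cells 30 of them had at least 50 UMIs at 12 weeks, of which 1 was at least 2-fold higher in DB and 1 lower, and 29 at 21 weeks, of which 1 was higher and 5 lower, beside a background of 0.991% of genes lower at 12 weeks and the shares given above for Il5. The receptors that activate ILC2 include Il1rl1, the IL-33 receptor, at 428, 524, 434 and 350.1 CPM, and Il17rb, the IL-25 receptor, at 43.5, 21.9, 23.7 and 9.19. Il17rb was lowest in 21-week-DB, with a log2 DB/WT ratio of -1.37 (-1.81 to -0.93) at 21 weeks. Ptgdr2, the prostaglandin D2 receptor, was highest in 12-week-WT, with 14.5, 3.81, 3.57 and 2.01 CPM and 32, 19, 14 and 19 UMIs. Pdcd1lg2, which encodes PD-L2, was higher in DB at both ages, at 7.25, 17.7, 9.18 and 32.01. Il1rl1, Gata3, Rora and Il7r served in the ILC2-like gate, so that their class differences are no finding.

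In mast-like cells, Il6, a ligand of the list, was at 81.2, 218, 164 and 493 CPM, with log2 DB/WT ratios of 1.42 (0.97 to 1.89) and 1.59 (1.24 to 1.96). Higher in DB at both ages too was Csf2rb2, a beta chain for IL-3 (89.1, 179.9, 296 and 627). Of the listed genes that served in no gate, 12 of the 28 tested were higher in ILC2-like than in mast-like cells and 9 lower, where 25.7% and 25.5% of all genes were. Against dermal γδ T-like cells 9 were higher and 5 lower of 29, beside 13.8% and 14.4% of all genes. Against Foxp3-negative αβ T-like cells the counts were 3 and 7 of 26, beside 9.84% and 9.91%, and against DETC-like cells 8 and 3 of 25, beside 22.1% and 23.1%. Arg1, arginase 1, was higher in ILC2-like cells in these 4 contrasts, by 4.71, 2.61, 6.59 and 5.70 on the log2 scale.

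Genes that STAT6 is known to induce stood at different levels in the DB and WT libraries of the myeloid cells that carry Il13ra1. Retnla, which encodes RELMα, was at 1868, 814, 3055 and 25.2 CPM in macrophage-like cells, with the lowest level in 21-week-DB and log2 DB/WT ratios of -1.20 (-1.22 to -1.17) and -6.92 (-7.08 to -6.77). The chemokine Ccl22 was at 8.56, 2.68, 10.3 and 1.12, with ratios of -1.68 (-2.14 to -1.22) and -3.20 (-4.07 to -2.44). Chil3 went the other way, at 0.367, 16.7, 3.94 and 14.8, and Mrc1, the mannose receptor, had 1233, 799.6, 836 and 549.8. Ccl22 served in the gate of migratory dendritic-like cells. The part of free RNA from other cells in the UMIs of these genes was not tested. Of the listed genes with at least 50 UMIs in macrophage-like cells, 2 of 34 were at least 2-fold higher and 5 lower in DB at 12 weeks, and 2 of 33 higher and 8 lower at 21 weeks. Over all genes of this class the shares were 1.49% higher and 3.35% lower at 12 weeks, and 4.83% higher and 3.52% lower at 21 weeks.

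In cDC2-like cells, Ccl17, a chemokine for CCR4+ T cells, was at 1445, 482, 504 and 1633 CPM, with a log2 DB/WT ratio of -1.59 (-1.64 to -1.53) at 12 weeks and 1.70 (1.64 to 1.75) at 21 weeks. The receptors for GM-CSF and IL-5 share the chain Csf2rb, which was higher in cDC2-like than in macrophage-like cells, by a log2 difference of macrophage-like minus cDC2-like of -1.88 ± 0.23 (edgeR adjusted p = 3.74e-04). Egfr, the amphiregulin receptor, was higher in macrophage-like cells, by 3.37 ± 0.14 (adjusted p = 4.37e-06), at 28.7, 21.96, 21.6 and 31.5 CPM. Of the 29 listed genes tested that served in no gate, 6 were higher in macrophage-like and 13 in cDC2-like cells, beside 24.6% and 23.7% of all genes.

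**Figure D5:**
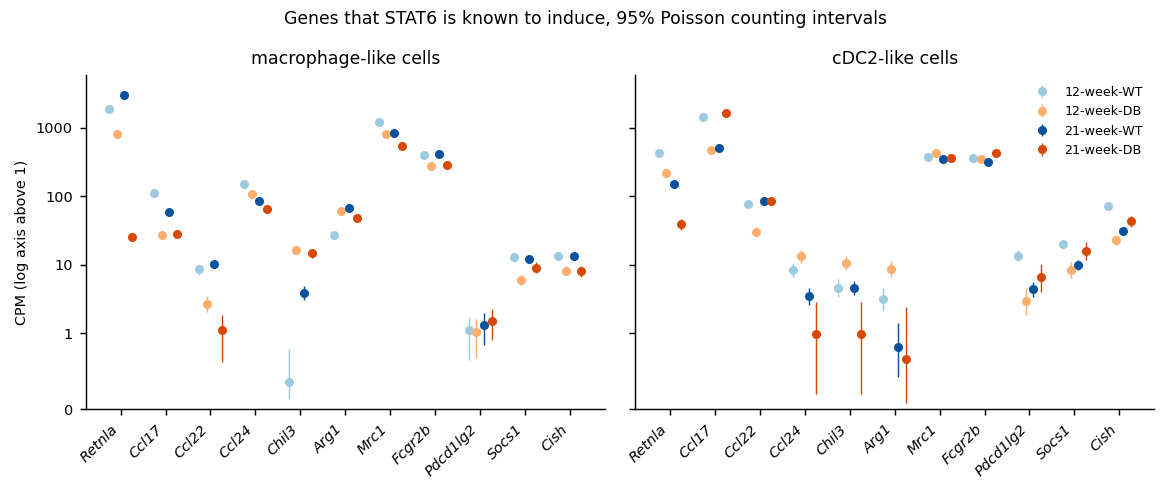
CPM (vertical axis, logarithmic above 1 and linear below) of 11 genes that STAT6 is known to induce in macrophage-like (left) and cDC2-like cells (right), with 1 point per library and 95% Poisson counting intervals. Retnla in macrophage-like cells is lowest in 21-week-DB at 25.2, and Ccl17 in cDC2-like cells runs from 482 to 1633.

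Over all barcodes of a library, the levels also moved with how many cells of each class were captured, and fewer cells of a class and less RNA per cell cannot be told apart in such sums. Il13 was at 27.4, 44.6, 42.95 and 141 CPM over all barcodes, a log2 DB/WT ratio of 0.70 at 12 weeks and 1.71 at 21 weeks. With every class given its WT share of UMIs, these ratios were 0.068 and 0.37. For Il5 they went from 2.47 to 1.78 at 12 weeks and from 1.95 to 0.77 at 21 weeks. The weighting took ungated barcodes and those in more than 1 gate as classes too, and these may mix cell types. In 12-week-DB 1 ungated barcode held 77 of the 691 Il5 UMIs. Areg at 21 weeks went from 1.50 to 1.11, Il4 from 2.03 to 0.56, and Csf2 from 0.93 to -0.016. Il9r changed sign, from 0.43 to -0.39, with 534 ILC2-like barcodes in 21-week-WT and 1510 in 21-week-DB. Il13ra1 went from -1.17 to -0.28, with 1448 macrophage-like and 239 cDC2-like barcodes in 21-week-DB against 1614 and 1086 in 21-week-WT.

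Across the 49 sums of a class and a library with at least 50 barcodes, the genes most like a member were ranked by Pearson's r of log2(CPM + 1) over 12773 genes, as a description, since the sums share libraries and classes. The nearest to Il13 were B3galt2 (0.86), Rnf128 (0.82) and Gm20627 (0.81), to Il4 Radx (0.92), Gm973 (0.90) and B3galt2 (0.89), to Il5 Usp44 (0.80), Acbd7 (0.79) and Lama5 (0.79) and to Csf2 Ncor1 (0.83), Olfr1259 (0.82) and Cxcr6 (0.82). Areg was nearest to Pcgf5 (0.78), Apol9a (0.76) and Tnfaip8 (0.76), and Il9r to Nsg2 (0.91), Hlf (0.87) and Il27ra (0.86), of which Hlf is a gate marker of ILC2-like cells. Il13ra1 ranked with the myeloid genes Marcks (0.93), Mpeg1 (0.92) and Alox5ap (0.91), and Il4ra had no close neighbour, with Rad52 (0.67), Gm8251 (0.66) and Bcl2l1 (0.66). Among members, r between Il13 and Il4 was 0.75, between Il13 and Csf2 0.67 and between Il13 and Il13ra1 -0.72.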

How the data were processed

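Single-cell RNA libraries of CD45+ hindpaw cells were analysed, 1 per condition. The authors deposited UMI counts per gene and barcode, filtered by Cell Ranger against mm10. The matrix headers name version 5.0.0 for the 12-week and 6.0.0 for the 21-week libraries, and the submitters' processing notes 5.0.0. A barcode was kept if it had 200 genes or more and no more than 10% mitochondrial UMIs. Cells were classed by marker UMIs, with thresholds set after seeing the data. Doublets were marked with scanpy 1.11.5 (Scrublet) and removed only as an alternative. Classes were compared on counts summed per library and class, in edgeR 4.0.16 run under R 4.3.3 (filterByExpr, TMM, two-sided quasi-likelihood tests with the libraries as blocks, Benjamini-Hochberg over all genes tested, threshold 0.05). DB against WT and 21 against 12 weeks were tested within 8 classes by the same test with genotype and age as additive terms (chosen after seeing the data, as were its alternatives). A ratio between libraries carries an exact conditional binomial interval and a level an exact Poisson interval, and counts of genes at least 2-fold apart used genes with at least 50 UMIs in the pair of libraries. Intervals and floors cover counting error only. DESeq2 1.42.0, no filter, RLE scaling, no block, left-out libraries, stricter barcode filters, clusters, stricter gates, and shared barcodes left out (chosen after seeing the data) were tried. The edgeR scripts were tested on simulated data. The named genes were the members, a listed pathway and, for each member, the 3 genes most alike in pattern. The members and lists were chosen with earlier results of these data known.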

Additional observations from a re-analysis of the deposited data

Results flagged for a closer look

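DB/WT ratios lay in opposite directions at 12 and 21 weeks in 30 of 65 pairs of a gene and a class with at least 30 barcodes per library, and in 5 of them both counting intervals also excluded 0. With 1 library per condition these differences between the ages were not tested. Il13 in ILC2-like cells stood at -0.24 on the log2 scale at the earlier age and 0.56 at the later one, and with clusters in place of gates both were above 0. Areg in ILC2-like cells had -0.45 and 0.75. Il13 in DETC-like cells had -0.73 and 1.40, the latter from 11 UMIs in 21-week-WT. Il13 in Foxp3-negative αβ T-like cells had 1.45 and -0.66, where the highest barcode of 12-week-DB held 123 UMIs. Areg in NK-like cells had -2.07 and 3.60 from 19, 4, 3 and 30 UMIs.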

How the results depend on the processing

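Of 486 member values in the tests under the alternatives, 451 kept direction and side of the threshold, 19 lost the call, 10 gained it and 6 reversed, none of the 6 called. Without the library block, edgeR called 1246 genes against dermal γδ T-like, 676 against Foxp3-negative αβ T-like cells and 4005 between macrophage-like and cDC2-like cells, in place of 3113, 2127 and 6085, and DESeq2 called 1333 against Foxp3-negative αβ T-like cells. Leaving out 1 library gave 2955 to 4291 called genes against DETC-like cells, in place of 4446, the fewest without 12-week-DB. In the additive fit within ILC2-like cells, edgeR called 140 genes for genotype and 49 for age. No age term gave 10 for genotype, at most 5% mitochondrial UMIs 12 and 3, clusters 366 and 234, and stricter gates 38 and 17. In ILC2-like cells, at most 5% mitochondrial UMIs moved the log2 DB/WT ratio of Il13 to -0.38 at 12 and 0.32 at 21 weeks, and at 21 weeks that of Il5 to 0.58 and of Il9r to -0.64. Clusters gave 0.040 and 0.10 for Il13, and at 21 weeks 0.60 for Il5 and 0.31 for Areg, and stricter gates 0.75 for Il13 and -1.26 for Il9r. With every class at its WT share, the ratios over all barcodes were 0.068 and 0.37 for Il13 and 0.32 and 1.11 for Areg. The percent of Il13 UMIs in ILC2-like cells was 47.7, 52.1 and 45.4 in the first 3 libraries with at most 5% mitochondrial UMIs, 59.7, 54.3 and 71.3 in the last 3 with doublets removed, 59.9, 72.3, 63.1 and 75.6 in the 4 libraries with clusters, and 62.8 in 21-week-DB with stricter gates. The percent of ILC2-like barcodes with Il13 was 25.5, 17.6, 22.9 and 25.6 thinned to 2000 UMIs and 16.8, 12.5, 16.5 and 19.4 thinned to 1000, a setting chosen after seeing the data. Leaving out 1 library in turn, Il13ra1 against dermal γδ T-like cells ran from -0.32 to 0.58 (below 0 without 21-week-WT), and between macrophage-like and cDC2-like cells Il13 from -0.065 to 0.47 (below 0 without 12-week-WT) and Csf2 from -0.69 to 0.49 (above 0 without 12-week-DB). Reversed too were Il13ra1 against Foxp3-negative αβ T-like cells with doublets removed (0.087), and between macrophage-like and cDC2-like cells Il13 with clusters (-0.99) and Csf2 with stricter gates (0.39). In Foxp3-negative αβ T-like cells the DB/WT ratio of Csf2 reversed to -0.69 at 12 and -0.37 at 21 weeks with clusters and to -0.99 at 21 weeks with stricter gates, and the 21/12-week ratio of Il13 in WT DETC-like cells to 0.0180 with clusters. The causes were not tested. Counting intervals say nothing of the spread between mice, which 1 library per condition does not show.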

Other observations

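Smaller classes also carried receptors and Areg. B-like cells, in which IL-4 receptor signals are known to act, had 72.7, 70.8, 109 and 17.4 CPM of Il4ra, and the 21-week-DB value rests on 5 UMIs in 70 barcodes. Neutrophil-like cells had 61.8, 130.2, 84.0 and 56.1 CPM of Il13ra1 from 31, 34, 34 and 7 UMIs, the highest in 12-week-DB. Langerhans-like cells, the dendritic cells of the epidermis, had 174, 124, 128 and 91.5 CPM of Il13ra1 in 19 to 60 barcodes. Monocyte-derived-like cells had 24.6, 122, 25.7 and 154 CPM of Areg, both DB libraries above both WT libraries, in 33 to 188 barcodes. Langerhans-like cells of 21-week-DB held 100 Areg UMIs, against 0, 3 and 5 in the other libraries, and a UMI was present in 10% of their barcodes there.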
